A study of Gallus gallus with 10 samples.

Results

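The genes described here mark macrophages and other myeloid cells in the abdominal fat of broiler chickens. The list holds 36 gene symbols and is set by name alone. Of these, 32 genes had at least 1 probe set annotated to that symbol alone on the Affymetrix GeneChip Chicken Genome Array, with 53 such probe sets among 38439 tested. TYROBP, AIF1, CCR2 and CD80 had none and were not analysed here. Abdominal fat came from 10 male Arbor Acres birds aged 49 days, 5 from the fat line and another 5 from the lean line. Both lines descended from a common grandsire line and were bred in opposite directions for abdominal fat percentage and plasma very low-density lipoprotein. Fat line birds were picked for the highest abdominal fat percentage and lean line birds for the lowest. All were raised on the same corn and soybean feed, eaten freely, and were fasted before weighing and slaughter. Each bird gave 1 array of RNA from bulk tissue.

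Macrophages are phagocytes that live in fat among the adipocytes, where they clear dying cells and release cytokines. The receptor CSF1R and the transcription factor SPI1 (PU.1) drive their development, and the complement protein C1q, made largely by tissue macrophages, tags debris for uptake. Heterophils, the avian counterpart of neutrophils, share several of these genes, among them those of the phagocyte NADPH oxidase.

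Expression was read as the MAS5 signal, a linear intensity whose trimmed mean was 500 on each array. Differences between the lines were tested with limma on log2 signals, with Benjamini-Hochberg adjustment over all 38439 probe sets. Where a gene had several probe sets, the brightest stood for it. No filter on low signals was applied in this comparison, so all 32 genes entered it. Signals of different probe sets are not on a common scale, so the order of genes by signal is not an order of RNA amounts. In bulk tissue, fewer cells of a type and less RNA per cell cannot be told apart.

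The arrays were scanned on 3 days and fell into 4 wash runs, grouped here by the times in their records. Lean lines 1 and 2 shared a run without any fat line bird, fat line 5 ran with lean line 4, fat line birds 1 to 3 ran with lean line 5, and fat line 4 ran with lean line 3. The 6 arrays of scan day 3 (fat line birds 1 to 4 and lean lines 3 and 5) were read on another scanner than the rest, and the wash record of lean line 4 holds a step stopped by the operator. Fat line 4 stood apart, with a median signal of 276 against 186 to 234 on the other 9 arrays. The tissue label held: the adipocyte gene FABP4 was at 44732 to 57201 in the fat line and 47910 to 52286 in the lean line. Over the whole array, 0 of 38439 probe sets differed between the lines at an adjusted p under 0.05.

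Most myeloid genes were brighter than most genes of eye, lens and oviduct. A mean signal of at least 200 was seen for 29 of the 32 genes, and for 9591 of all 13009 genes. The median myeloid gene had a mean signal of 579 (percentile 75.6 of the array), compared with 447 for all 13009 genes. Of 21 genes of eye, lens and oviduct, which fat should not use, 6 reached 200 and their median was 88.1 (avidin, which chicken macrophages also make, was left out of this count). CSF1R, LY86 and LAPTM5 had the highest mean signals of the list. CSF3R, GPNMB and IL1B had mean signals of 37.4, 85.2 and 32.7, in the range of genes foreign to fat, so their folds and their order among birds are open to background. TIMD4, IL10RA, CX3CR1, LYZ, PLEK and TLR15 had mean signals of 264 to 314. These lay below the foreign genes CRYBB1 (330), CRYGN (342) and OVALX (1160), so they call for caution too. CYBB (366), CD40 (420), MERTK (437), TREM2 (449), LGALS3 (459), TLR4 (492) and IL18 (494) lay above CRYGN but below OVALX. TLR2A, NCF4, LY96, CSTA and FCER1G also lay below OVALX, so none of these is clear of background by that gene.

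**Figure D1:**
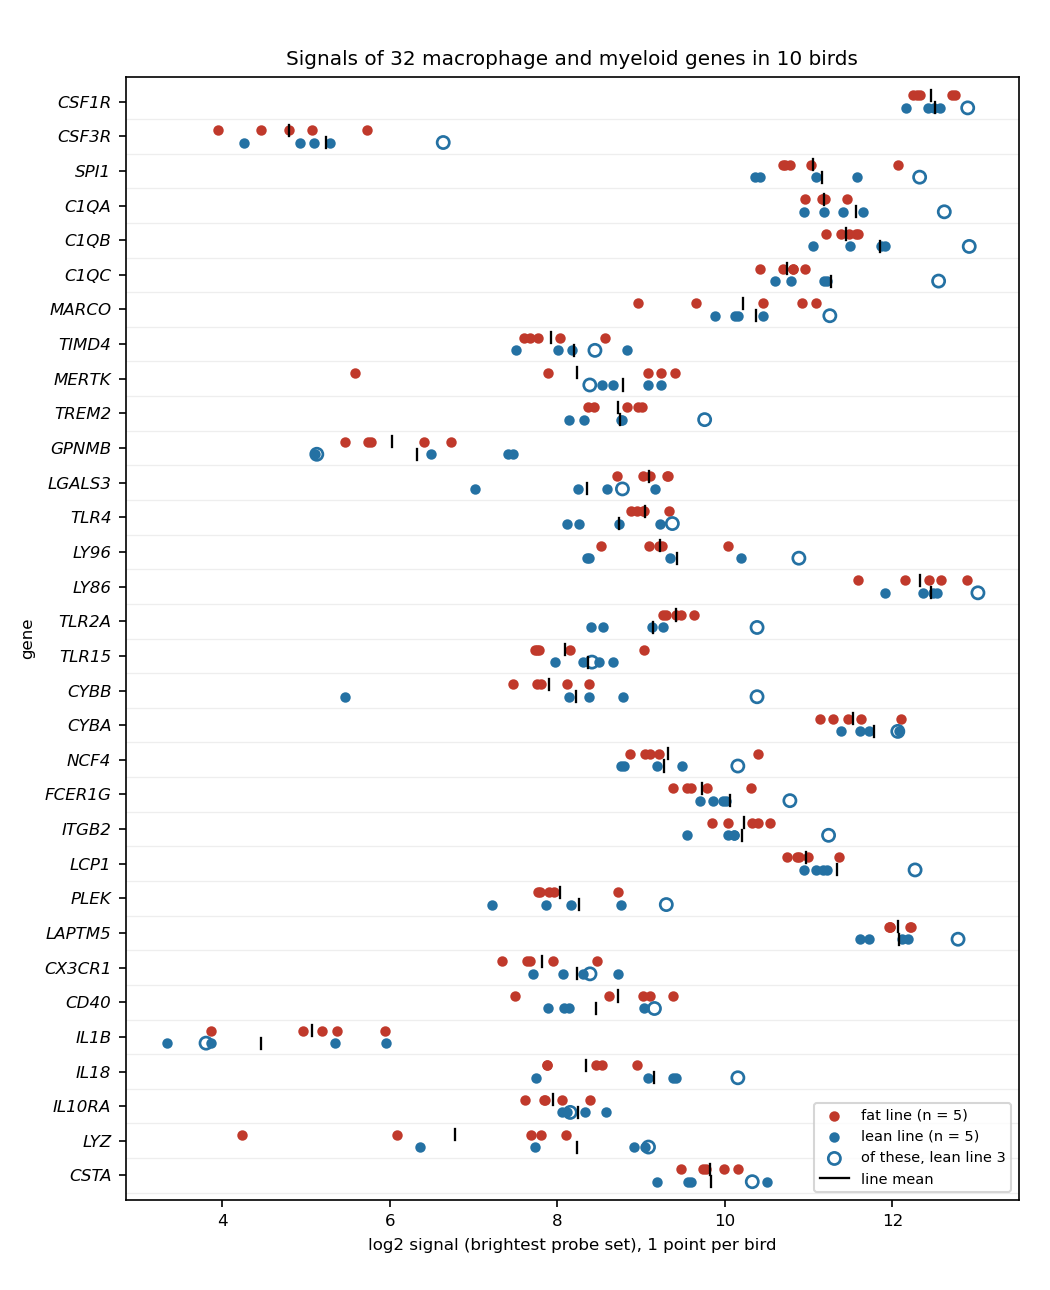
Log2 signal of the brightest probe set of each of the 32 genes, 1 point per bird, with fat line birds above lean line birds and a bar at each line's mean. The lines overlap for every gene, and lean line 3 (open circles) is the highest of all 10 birds for 20 genes.

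No myeloid gene differed between the lines after adjustment. Past an adjusted p of 0.05 there were 0 of 53 member probe sets (0.0% over the array) by limma. SAM, which was read at a delta of 0.8 and not by an adjusted p, also called 0 of them. At an unadjusted p under 0.05 there were 2 of 32 genes (7.93% over all genes), LGALS3, higher in the fat line (3.33% of all genes were), and IL18, lower (4.6%). The lines overlapped for all 32 genes (1.5% of all genes did not overlap). The log2 fold was above 0 for 7 genes and below 0 for 25, with a median of -0.24, against a median of -0.05 over all genes, of which 43.9% lay above 0. This downward shift rested on lean line 3: without this bird 17 genes lay above 0 and 15 below, the median was 0.02, and 2 genes were at an unadjusted p under 0.05 (7.77% over all genes). Over the 53 probe sets, 5 reached an unadjusted p under 0.05 (7.38% over the array), 2 of them higher in the fat line (3.38%) and 3 lower (3.99%).

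Among the growth factor receptors, CSF1R, the receptor for macrophage colony-stimulating factor, was level across birds at its brightest probe set. Its signals were 5022, 6846, 5128, 4845 and 6716 in fat line birds 1 to 5, against 4566, 6079, 7631, 5488 and 5790.4 in lean line birds 1 to 5. At that probe set the birds lay within 1.67-fold of each other, the narrowest range of the 32 genes, and the log2 fold was -0.05 (SE 0.16, adjusted p = 0.974). The 3 other probe sets of CSF1R ranged over 2.64-fold, 2.27-fold and 3.69-fold, and tracked the brightest at r of 0.41 to 0.66. They gave folds up to 0.37 in the other direction, so CSF1R had no settled sign. SPI1, the transcription factor that sets the myeloid fate, varied more, with 2084, 1753, 1661, 1689 and 4274 in fat line birds 1 to 5, against 2172, 1309.7, 5127, 1369 and 3064 in lean line birds 1 to 5. Lean line 3, fat line 5 and lean line 5 stood above the rest, birds of both lines, and the fold was -0.10 (SE 0.35, adjusted p = 0.975). CSF3R, the receptor for granulocyte colony-stimulating factor carried by heterophils, was dim, with 27.8, 15.4, 22.1, 53 and 33.5 in fat line birds 1 to 5, against 39.1, 34.3, 99.6, 19.2 and 30.4 in lean line birds 1 to 5. The highest value was in lean line 3, and all were in the range of genes foreign to fat.

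The 3 chains of C1q were bright in every bird and, at their brightest probe sets, moved as a unit. C1QA signals were 2347, 1994, 2298, 2277 and 2808 in fat line birds 1 to 5, against 2715, 2318, 6287, 1969 and 3209.7 in lean line birds 1 to 5. C1QB signals were 3017, 2371, 2849, 2675 and 3071 in fat line birds 1 to 5, against 3729, 2879.9, 7728, 2125 and 3855 in lean line birds 1 to 5. C1QC signals were 1987, 1365, 1795, 1662 and 1797 in fat line birds 1 to 5, against 2315, 1765, 5998, 1551 and 2384 in lean line birds 1 to 5. At these probe sets lean line 3 stood at least 1.96-fold above every other bird in each chain, and lean line 5 came next in all 3. The log2 folds were -0.37 (SE 0.25, adjusted p = 0.781) for C1QA, -0.40 (SE 0.25, adjusted p = 0.773) for C1QB and -0.53 (SE 0.28, adjusted p = 0.735) for C1QC. The folds were -0.11, -0.14 and -0.21 without lean line 3. The dimmer probe set of C1QB tracked the brighter at r = 0.70. It was at 1020 to 2328 in the fat line and 1288 to 5148 in the lean line. Lean line 3 was highest there too, but fat line 4 came next, and lean line 5 was lowest of the lean line. Its fold was -0.50 (SE 0.33, adjusted p = 0.783). In the RefSeq annotation of the GRCg7b assembly C1QC lies between C1QA and C1QB, with no other protein-coding gene among them.

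Scavenger receptors and receptors for dying cells did not follow that order. MARCO, a scavenger receptor of resident macrophages, had 1929.5, 2169.7, 1407, 501 and 805 in fat line birds 1 to 5, against 1145, 1111, 2439, 943 and 1404 in lean line birds 1 to 5. Fat line 4 was lowest by far and lean line 3 highest, and the fold was -0.16 (SE 0.36, adjusted p = 0.955). MERTK, a kinase receptor for apoptotic cells, was also lowest in fat line 4, at 48.1, while lean line 3 was 8th of the 10 birds. At this probe set the birds ranged over 14.12-fold and the fold was -0.54. The dimmer probe set of MERTK was also lowest in fat line 4, at 166, but ranged over 2.01-fold and gave a fold of 0.01. TIMD4, which binds phosphatidylserine on dying cells, ranged over 194 to 381 in the fat line and 182 to 454 in the lean line. TREM2, a lipid-sensing receptor of fat macrophages in mammals, had 331 to 517 in the fat line and 282 to 866 in the lean line, with lean line 3 again on top. The fold was -0.03. Its dimmer probe set was at 60.8 to 271 in the fat line and 170 to 725 in the lean line. That probe set gave -1.17 by limma (SE 0.47, unadjusted p = 0.0249, adjusted p = 0.619) and tracked the brighter at r = 0.44. GPNMB, a membrane glycoprotein of lipid-laden phagocytes, stayed dim at 44.1 to 106 in the fat line and 34.4 to 178 in the lean line.

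LGALS3, a galactose-binding lectin abundant in macrophages, had the smallest p of the genes higher in the fat line. Its signals were 520.4, 641, 418, 551 and 634 in fat line birds 1 to 5, against 572, 385, 439, 129 and 303 in lean line birds 1 to 5. Fat line birds clustered between 418 and 641, and the lean line spread down to 129 in lean line 4. The log2 fold was 0.74 (SE 0.33, unadjusted p = 0.042, adjusted p = 0.668), and an exact two-sided permutation test over every labelling of 5 birds against 5 gave p = 0.0635, where the smallest possible is 0.0079. The fold ranged between 0.40, the value without lean line 4, and 1.08 over the other settings tried. The dimmer probe set of LGALS3 gave -0.24 and correlated with the brighter at r = -0.38, so the 2 probe sets disagree.

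Toll-like receptors and their partners showed no common direction. TLR4, the receptor for lipopolysaccharide, had 493, 524, 518, 472 and 642 in fat line birds 1 to 5, against 305, 277, 663, 425 and 601 in lean line birds 1 to 5. Lean lines 1 and 2, which shared a wash run and scan day, were the lowest, and the fold of 0.30 (SE 0.26, adjusted p = 0.842) was -0.08 with scan day as a block. LY96 (MD-2), the lipopolysaccharide-binding partner of TLR4, ranged over 368 to 1052 in the fat line and 326 to 1888 in the lean line, with a fold of -0.21. LY86 (MD-1), the partner of the related receptor RP105, was bright, with 7579, 5542, 6122, 4544 and 3086 in fat line birds 1 to 5, against 5905, 5726, 8304, 3851 and 5281 in lean line birds 1 to 5. TLR2A, 1 of the chicken TLR2 copies, was at 615 to 794 in the fat line and 337 to 1336 in the lean line; 4 of the 5 lean line birds lay below every fat line bird, and lean line 3 lay above them all. Without lean line 3 its log2 fold was 0.58 (SE 0.22, unadjusted p = 0.0194, adjusted p = 0.601). TLR15, a receptor found in birds and reptiles, was at 213 to 526 in the fat line and 251.8 to 405 in the lean line, with fat line 4 highest.

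The NADPH oxidase makes the oxidative burst of phagocytes. CYBB (gp91phox), its catalytic subunit, had 332, 178, 223, 278 and 217 in fat line birds 1 to 5, against 439, 281, 1336, 44.3 and 331 in lean line birds 1 to 5. Lean line 3 exceeded every other bird at least 3.04-fold and lean line 4 was lowest, at a level seen for genes foreign to fat. CYBA (p22phox), which stabilises CYBB in the membrane, was far steadier, with 3167, 2843, 4403, 2240.4 and 2506 in fat line birds 1 to 5, against 3133, 2683, 4279.9, 3383 and 4319 in lean line birds 1 to 5. NCF4 (p40phox), a cytosolic subunit, ranged over 467 to 1348 in the fat line and 434 to 1139 in the lean line, with fat line 5 and lean line 3 highest. The folds were -0.32 for CYBB, -0.25 for CYBA and 0.05 for NCF4. Without lean line 4, whose wash record holds the stopped step, the fold of CYBB was -1.01 (SE 0.40, unadjusted p = 0.0249, adjusted p = 0.737). It was 0.22 without lean line 3, the highest bird (SE 0.55, unadjusted p = 0.699, adjusted p = 0.964), so the direction of CYBB turned with the bird left out.

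FCER1G, the signalling adaptor of Fc receptors, had 750.3, 665, 775, 1274 and 883 in fat line birds 1 to 5, against 1011, 1035, 1753, 834 and 925 in lean line birds 1 to 5. Lean line 3 was highest and fat line 4 second. Integrin beta 2 (ITGB2), the shared chain of leukocyte adhesion receptors, was at 918 to 1487 in the fat line and 751 to 2414 in the lean line. LCP1 (L-plastin), an actin bundler of leukocytes, had 1887, 1852, 1712, 2043 and 2634 in fat line birds 1 to 5, against 2167, 2392, 4937, 1977 and 2312 in lean line birds 1 to 5. The other 4 lean line birds lay between 1977 and 2392, among the fat line birds. LAPTM5, a lysosomal membrane protein of leukocytes, had 3996, 3993, 4012, 4753 and 4759.5 in fat line birds 1 to 5, against 4419.5, 3374, 7045, 3136 and 4675 in lean line birds 1 to 5. PLEK (pleckstrin), a protein kinase C substrate of leukocytes and thrombocytes, was at 218 to 422 in the fat line and 149.6 to 630.5 in the lean line. All 5 had their maximum in lean line 3, and the folds were -0.34 for FCER1G, 0.02 for ITGB2, -0.37 for LCP1, -0.02 for LAPTM5 and -0.23 for PLEK.

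CX3CR1, the fractalkine receptor of monocytes and resident macrophages, had 203, 199.6, 355, 162 and 248 in fat line birds 1 to 5, against 209.9, 421, 335, 267 and 317 in lean line birds 1 to 5. The birds were intermixed, with lean line 2 highest and fat line 4 lowest. CD40, a costimulatory receptor on antigen-presenting cells, was at 179.7 to 669 in the fat line and 238 to 572 in the lean line, with fat line 4 lowest. IL10RA, the ligand-binding chain of the interleukin 10 receptor, was at 196 to 336 in the fat line and 266 to 383 in the lean line, a fold of -0.30. Its dimmer probe set was the only 1 of 53 whose lines did not overlap (1.39% over the array), at 24.0 to 156.9 in the fat line and 9.5 to 21.1 in the lean line, signals as low as those of genes foreign to fat, and the brighter probe set ran the other way.

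IL18, an interferon-inducing cytokine released by activated macrophages, was the other gene at an unadjusted p under 0.05. Its signals were 236, 370.4, 235, 496 and 351 in fat line birds 1 to 5, against 543, 215, 1139.7, 666 and 684 in lean line birds 1 to 5. Lean line 2 was the lowest bird of all, while the other 4 lean line birds lay above every fat line bird. The log2 fold was -0.82 (SE 0.37, unadjusted p = 0.0432, adjusted p = 0.671), and the exact two-sided permutation test gave p = 0.119. Without lean line 3 it was -0.57 (unadjusted p = 0.133), and with scan day as a block -1.32 (unadjusted p = 0.00321, adjusted p = 0.451). The second probe set gave -0.51 and tracked the first at r = 0.92. IL1B, the cytokine most often used as a sign of macrophage activation, stayed at 14.6 to 61.5 in the fat line and 10.1 to 62.2 in the lean line, at or below the level of genes foreign to fat.

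LYZ, lysozyme, the enzyme of egg white and of phagocyte granules, had the largest fold among the brightest probe sets of the list, at -1.44 (SE 0.71, unadjusted p = 0.0601, adjusted p = 0.702). The dimmer LYZ probe set, at a mean signal of 55.3, gave -1.97 by limma (SE 0.74, unadjusted p = 0.0181, adjusted p = 0.577). It tracked the brighter only at r = 0.13. At the brighter probe set the signals were 206, 274, 18.9, 67.9 and 224 in fat line birds 1 to 5, against 529.6, 82.1, 544, 213 and 482 in lean line birds 1 to 5. Fat line birds 3 and 4 were lowest, and 3 lean line birds were above every fat line bird. The signal of 18.9 in fat line 3 was below the median of 88.1 for genes foreign to fat, and without that bird the fold was -0.81 (SE 0.58, unadjusted p = 0.181, adjusted p = 0.956). CSTA, a cystatin that inhibits lysosomal proteases, was at 709 to 1145 in the fat line and 584 to 1444 in the lean line, with a fold of -0.01.

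**Figure D2:**
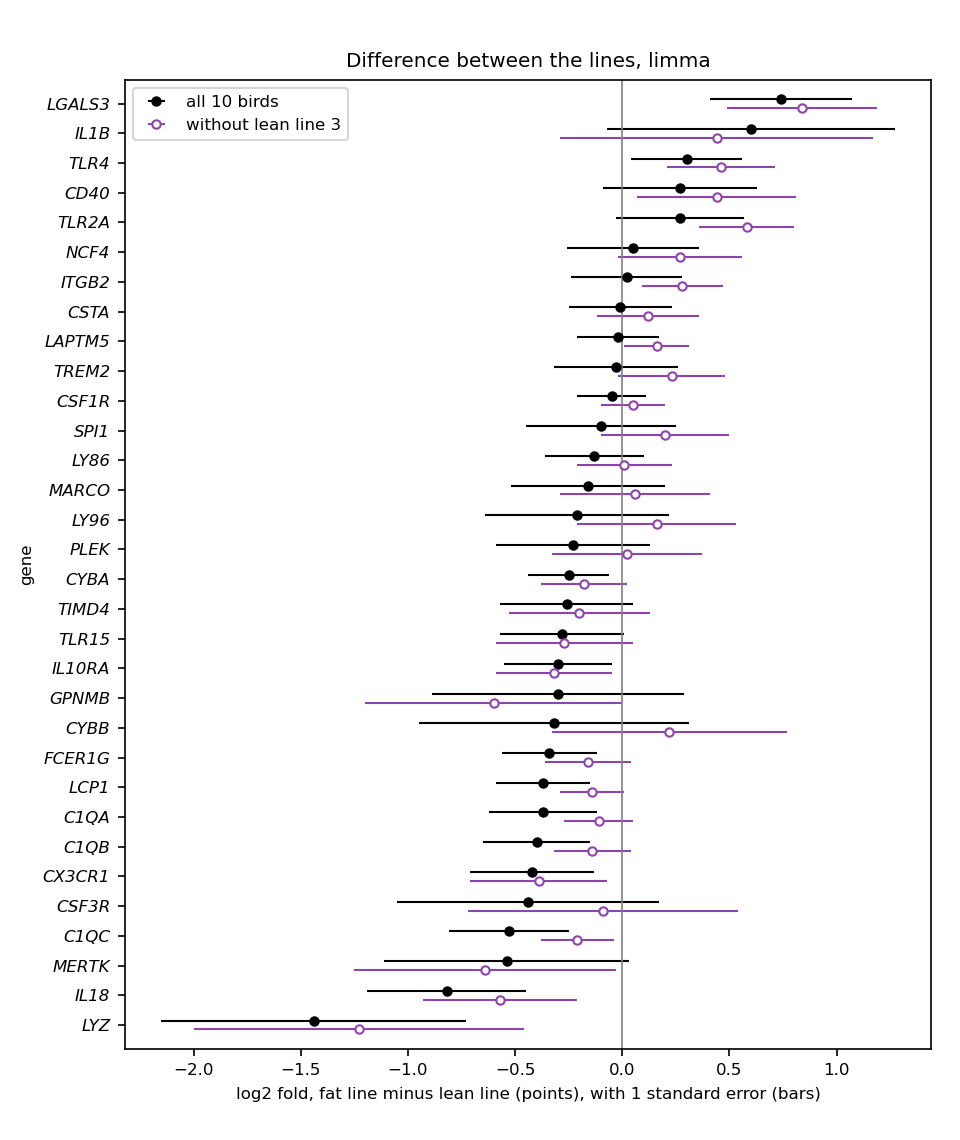
Log2 fold of each gene, fat line minus lean line, by limma, with bars of 1 standard error, over all 10 birds (filled) and without lean line 3 (open). Over all birds 25 of 32 folds lie below 0, and without lean line 3 there are 15.

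Of the 17 genes with several probe sets, 7 had folds of both signs. The probe sets tracked the brightest at r of at least 0.8 in 4 of them (SPI1, NCF4, LCP1 and IL18), and at least 1 probe set ran against it, with r below 0, in 5 (GPNMB, LGALS3, TLR15, CX3CR1 and IL10RA). Between these groups lay TIMD4 (r = 0.01), LYZ (0.13), CYBA (0.28), PLEK (0.38), CSF1R (0.41 to 0.66), TREM2 (0.44), MERTK (0.67) and C1QB (0.70). Folds of both signs were seen for TIMD4 (-0.26 and 0.09) and PLEK (-0.23 and 0.31), among others. The values of the 5 genes with r below 0 depend on the probe set read, and so do those of TIMD4, LYZ, CYBA and PLEK.

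Lean line 3 stood apart from all other birds in these genes. It was the highest of the 10 birds for 20 of 32 genes, against 14.0% of all genes of the array, and above the gene's mean for 29. The median ratio of lean line 3 to the median of the other 9 birds was 1.98 over the myeloid genes and 1.05 over all genes, and 15 of the 32 ratios were at least 2. Among the 29 genes with a mean signal of at least 200, lean line 3 was highest for 19, 14 ratios were at least 2 and the median ratio was 1.99. Of these, CYBB, at 4.81, C1QC, at 3.34, LY96, at 3.19, and IL18, at 3.08, had the highest ratios. The signal in lean line 3 was not above the median of the others for MERTK and LGALS3, nor for the dim GPNMB and IL1B. The mean standardised level of the 32 genes was 1.37 in lean line 3 and between -0.52 (lean line 4) and 0.13 (lean line 5) in the other 9, and the 5 fat line birds lay between -0.27 and 0.03.

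Markers of other cells were read in the same bird. Relative to each gene's mean over the 10 birds, the heterophil granule list of 6 genes lay 1.91 above on the log2 scale in lean line 3 and between -1.05 and 0.59 in the others. Of these 6 genes, 3 (CATHB1, MMP9 and CSF3R, itself a member) had mean signals of 23.8 to 42.7, in the range of genes foreign to fat. Among the other 3, EXFABP and LECT2 were highest in lean line 3, while LYG2, at 2243.5 there, was highest in fat line 2 at 17143. The 12 endothelial genes lay 0.40 above in lean line 3 and between -0.16 and 0.09 in the others, but the list was divided. EGFL7 (6869), VWF, TEK and TIE1 were highest in lean line 3, while CLDN5 (3118) was lowest there. PECAM1 (15472) and EMCN (573) lay below their mean signals of 16689 and 757 in that bird. T cell genes, at 0.32 in lean line 3, lay at 0.38 in fat line 4 and 0.30 in lean line 1. B cell genes lay at 0.06 and dendritic cell genes at -0.09 in lean line 3. The 14 adipocyte genes had their lowest mean deviation in lean line 3, at -0.69, but they did not all fall there. SCD (492), DGAT2 (1292), GPD1, FASN, LPL, THRSP and CIDEC had their lowest signal of the 10 birds in lean line 3. FABP4 (52286) and ADIPOQ (10784) lay above their mean signals of 50076 and 9898. Between the lines, 11 adipocyte genes lay higher and 3 lower in the fat line, and 6 reached an unadjusted p under 0.05 (7.93% over all genes), 5 of them higher. The wash partner of lean line 3, fat line 4, had a mean standardised myeloid level of -0.14. The 3'/5' ratio of actin was 1.716 in lean line 3. It was 1.545 to 2.046 over scan day 3 and 2.281 to 3.093 on the other days. The 3'/5' ratio of GAPDH was lowest in fat line 4 (0.871) and lean line 3 (0.894), against 0.952 to 1.274 on the other arrays. What part cell makeup, RNA quality or wash run had in the signals of lean line 3 was not tested.

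**Figure D3:**
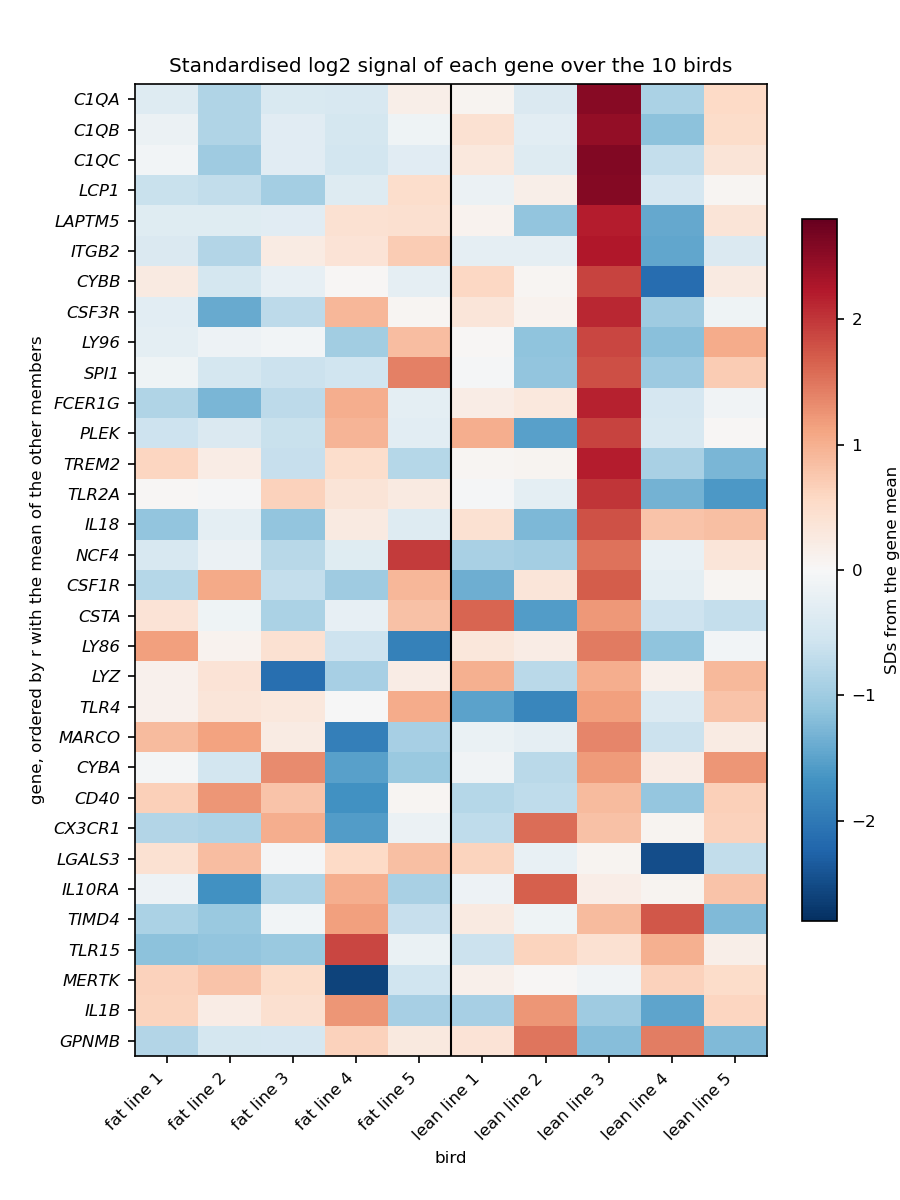
Log2 signal of each gene in SDs from its own mean over the 10 birds, with the fat line on the left and genes ordered by their correlation with the mean of the other members. Genes run from C1QA (r = 0.98) at the top to GPNMB (r = -0.60) at the bottom, and the lean line 3 column is red for 29 of 32.

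The genes varied together across birds, again mostly through that bird. Over the 496 pairs of the 32 genes the median Pearson r of log2 signals was 0.278, and 29.8% of pairs had r over 0.5, while over all pairs of 13009 genes the median was 0.005 and 9.85% passed 0.5. Deviations from line means gave a median of 0.292 and deviations from scan day means 0.33. Without lean line 3 the median was 0.062 with 14.1% of pairs over 0.5, against 0.004 and 11.4% for all genes. All r in this paragraph rest on the same 10 arrays and are descriptions.

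**Figure D4:**
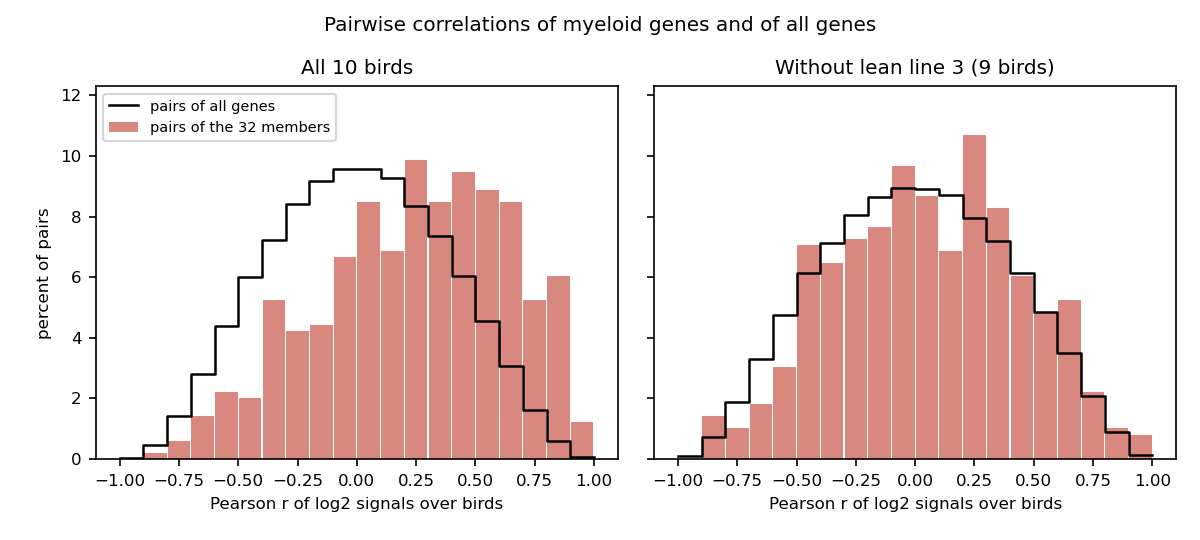
Share of gene pairs by Pearson r, in bins of 0.1, for the 32 myeloid genes (bars) and all 13009 genes (line), over 10 birds on the left and without lean line 3 on the right. The myeloid bars lie to the right of the line over 10 birds (median r 0.278) and close to it over 9 (median r 0.062).

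Some links held without lean line 3, while others weakened. Correlation with the mean of the other members was 0.98 for C1QA, 0.97 for C1QB, 0.96 for C1QC, 0.92 for LCP1, 0.90 for LAPTM5 and 0.85 for ITGB2. Without lean line 3 these were 0.91, 0.89, 0.71, 0.50, 0.80 and 0.56, with the largest falls for LCP1 and ITGB2. For CSF1R, at its brightest probe set, the value was 0.50 with lean line 3 and -0.19 without it. For TREM2, also at its brightest, it was 0.66 with that bird and -0.20 without. TIMD4, TLR15 and IL10RA had values of 0.03, 0.03 and 0.05 over the 10 birds, and GPNMB, at -0.60, was the most opposed.

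Correlation was also read in 17 pairs of members. Some are subunits or partners, and others only share the list. Of the 17 pairs, 4 passed an adjusted p of 0.05 in a two-sided permutation test of Pearson r over the 10 birds, adjusted over the 17 pairs. The pairs were chosen with earlier results of these data known, so these p values are not an independent test. C1QA and C1QB had r = 0.98 (permutation p = 7e-05, adjusted p = 0.000595), with Spearman rho 0.99 (permutation p = 3e-05, adjusted p = 0.00051). C1QB and C1QC had r = 0.98 (permutation p = 6e-05, adjusted p = 0.000595) and rho 0.96 (permutation p = 6e-05, adjusted p = 0.00051). C1QA and C1QC had r = 0.97 (permutation p = 0.00021, adjusted p = 0.00119) and rho 0.94 (permutation p = 0.00021, adjusted p = 0.00119). At their brightest probe sets the chains kept this relation in the other birds. Without lean line 3 the 3 r, in the order given, were 0.92, 0.93 and 0.85, and without the 2 birds farthest from the median of the first gene they were 0.89, 0.98 and 0.78. Within scan days they were 1.0, 0.98 and 0.98.

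ITGB2 and LAPTM5 had r = 0.89 (permutation p = 0.00186, adjusted p = 0.0079) and rho 0.82 (permutation p = 0.00561, adjusted p = 0.0238), with r = 0.89 within scan days. This relation rested on lean lines 3 and 4, without which r was 0.45. ITGB2 and LCP1 had r = 0.80 (permutation p = 0.0179, adjusted p = 0.061) and rho 0.52 (permutation p = 0.133, adjusted p = 0.324), with r = 0.34 without those 2 birds. TLR4 and its partner LY96 passed by rank only, with rho 0.77 (permutation p = 0.0124, adjusted p = 0.0423) and r = 0.69 (permutation p = 0.0264, adjusted p = 0.0749). Their r was 0.62 without lean line 3, 0.97 without lean lines 1 and 2, the 2 birds of scan day 2, and 0.96 within scan days. The oxidase subunits did not pass: CYBB and CYBA had r = 0.24 (permutation p = 0.526, adjusted p = 0.559) and rho 0.21 (permutation p = 0.562, adjusted p = 0.735), with r = 0.16 without lean lines 3 and 4. CYBB and NCF4 had r = 0.27 (permutation p = 0.407, adjusted p = 0.494) and rho -0.16 (permutation p = 0.655, adjusted p = 0.746). For CYBB and NCF4 r within scan days was 0.92, against -0.36 without lean lines 3 and 4. CSF1R and SPI1 had r = 0.55 (permutation p = 0.104, adjusted p = 0.221) and rho 0.30 (permutation p = 0.405, adjusted p = 0.627), with r = 0.36 without lean lines 1 and 3. The remaining pairs did not pass by either measure.

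A further pair of sets was picked out after the values were seen. For SPI1, LY96 and NCF4 the 3 highest birds were fat line 5, lean line 3 and lean line 5, in differing order. Their r were 0.94 for SPI1 and LY96, 0.88 for SPI1 and NCF4 and 0.75 for LY96 and NCF4, and 0.90, 0.82 and 0.62 without lean line 3. All of these r keep fat line 5, which stood apart from the other fat line birds for SPI1 and NCF4, so they may rest on it. MARCO, CD40 and MERTK were lowest in fat line 4, with r of 0.86 for MARCO and CD40, 0.73 for MARCO and MERTK and 0.62 for CD40 and MERTK. Without fat line 4 these were 0.76, 0.40 and 0.24, so the link of MERTK to the other 2 rested on that bird. The drop of MERTK was smaller at its dimmer probe set, at 166 in fat line 4 against 195 to 333 in the other birds. Apart from fat line 4, the birds of scan day 3 had 1404 to 2439 for MARCO and 521 to 669 for CD40, against 805 to 1145 and 238 to 394 on the other days, while MERTK overlapped between the days. The part of scan day in these signals was not tested.

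**Figure D5:**
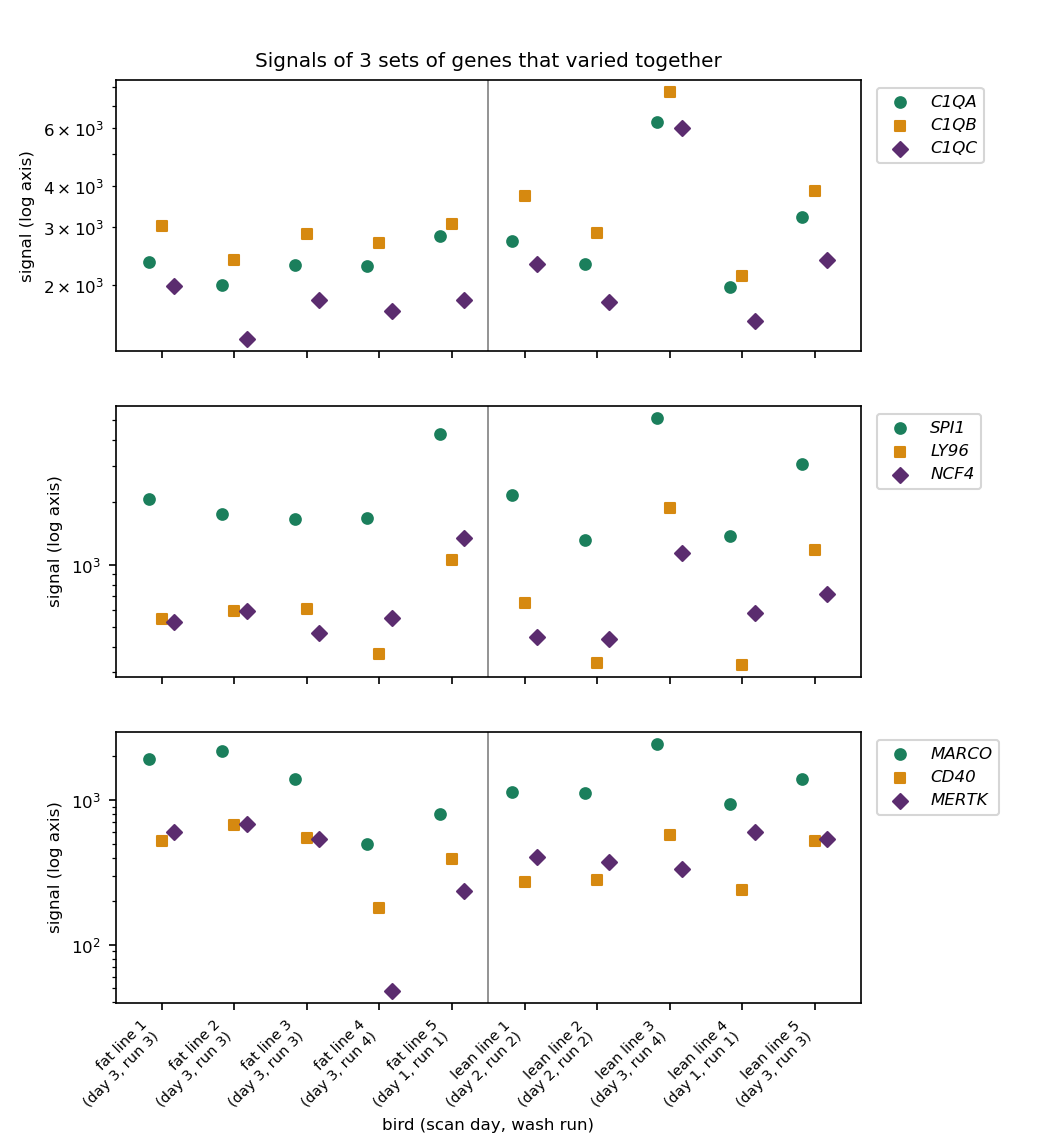
Signals (log axes) of C1QA, C1QB and C1QC (top), SPI1, LY96 and NCF4 (middle) and MARCO, CD40 and MERTK (bottom) in each bird, with fat line birds on the left and the scan day and wash run under each bird. At the brightest probe set of each gene, the 3 C1q chains run in parallel with a peak in lean line 3. SPI1 is also high in fat line 5 (4274), and MERTK drops to 48.1 in fat line 4.

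Line differences changed with the birds compared. Fat line 5 against lean line 4, within their wash run, gave 22 genes higher and 10 lower, with a median log2 difference of 0.35. Fat line birds 1 to 3 against lean line 5 gave 11 higher and 21 lower, with a median of -0.34. Fat line 4 against lean line 3 gave 6 higher and 26 lower, with a median of -0.91. The direction of the myeloid genes therefore differed between these comparisons. Each held a single lean line bird, so run and bird cannot be told apart. The counts within runs have no array-wide count beside them. With scan day as a block, 5 genes were at an unadjusted p under 0.05 (7.5% over all genes) and the median fold was -0.36. With wash run as a block there were also 5 (8.66%). Within scan day 3 alone, a comparison added after seeing the data of fat line birds 1 to 4 with lean lines 3 and 5, 28 of 32 genes lay lower in the fat line. There, 10 genes were at an unadjusted p under 0.05 (6.88%), all of them lower. The median fold of the 32 genes was -0.49, against -0.04 over all genes. Lean line 3 makes up 1 of the 2 lean line birds in that comparison. None of these genes passed after adjustment.

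Outside the list, the genes most like it over the 10 birds were found among 9562 bright genes by Pearson r with the mean standardised level of the 32. DMA, a chaperone that loads MHC class II molecules, had r = 0.954, C3AR1L, named as a complement C3a receptor, 0.949, and SERPINB10B, a serpin, 0.937. SMAP2, EGFL7, CNDP2, GPX1, CCDC173, AP5M1 and BCL6 followed, down to 0.906. At the other end were SLC29A3, at -0.944, ADAMTS12, EXOC3, AGPAT5 and PIGF, at -0.913. Without lean line 3 the r of DMA was 0.728, that of GPX1 0.756 and that of EXOC3 -0.808, and that of CNDP2 was 0.374. The median r of all candidates was 0.029.

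Wider lists of myeloid genes gave no call after adjustment either. Of 32 other myeloid receptors and signalling genes, 10 lay higher and 22 lower, with a median fold of -0.10 and 2 at an unadjusted p under 0.05 (7.93% over all genes), 1 higher and 1 lower in the fat line. The higher was LYN, a Src family kinase of myeloid and B cells, with a fold of 0.76 (SE 0.19, adjusted p = 0.321). LYN was at 3226 to 4877 in the fat line and 1839 to 3756 in the lean line. Of 28 myeloid cytokines and chemokines, 8 lay higher and 20 lower, with a median of -0.17 and 3 at an unadjusted p under 0.05 (4.6% of all genes were lower at that p), all lower: TNFSF10 at -0.65, IL1RL1 at -1.18 and LITAF at -0.57. IL1RL1 is the receptor of interleukin 33, and LITAF is a regulator of the lipopolysaccharide response.

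Phagocytosis and lysosome genes had no common direction. Of 21 genes, 12 lay higher and 9 lower, with a median of 0.06, and 6 reached an unadjusted p under 0.05 (7.93% over all genes), 5 of them higher in the fat line. These 5 include CD36, which is also on the adipocyte list. LGMN, the lysosomal protease legumain, had 20712, 10925, 18670, 15847 and 16822 in fat line birds 1 to 5, against 7563, 12352, 2468, 7934 and 4988 in lean line birds 1 to 5. Fat line birds were mostly above lean line birds, with lean line 2 above fat line 2, and lean line 3 was the lowest of all, with a fold of 1.39 (SE 0.33, adjusted p = 0.304). LGALS8, a galectin that senses damaged lysosomes, was at 3462 to 4460.3 in the fat line and 1913 to 3039 in the lean line, lines that do not overlap, with a fold of 0.67 (SE 0.14, adjusted p = 0.257). CTSZ, the lysosomal protease cathepsin Z, was at 6714 to 8731 in the fat line and 5050 to 6120 in the lean line, also without overlap (1.5% of all genes had none), with a fold of 0.42 (SE 0.13, adjusted p = 0.458). None of the 3 is made by macrophages alone, and which cells gave these signals was not tested. Lean line 3, highest for most myeloid genes, was lowest for all 3. The gene of the 6 that lay lower in the fat line, RAC2, had a fold of -0.55 (SE 0.19, adjusted p = 0.528) and was highest in lean line 3.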

How the data were processed

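Abdominal fat RNA of 5 fat line and 5 lean line birds was hybridised to 1 Affymetrix GeneChip Chicken Genome Array per bird. The deposited values are MAS5 signals, linear intensities whose trimmed mean (2% cut at each end) was found to be 500 on each array. The methods of the paper describe normalization to total fluorescence. Detection calls were not used here. Deposited wash and scan records (other values, no expression) gave the scan day. Wash runs are not named there. They were grouped here by the hybridize date and time in those records, with a new run after a gap of over 60 minutes.

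Signals were taken to log2 with nothing added, and 96 control probe sets were left out. The lines were compared with limma 3.58.1 in R 4.3.3 (lmFit, eBayes with an intensity trend, two-sided, Benjamini-Hochberg over 38439 probe sets). Correlations and exact permutation tests used Python 3.11.15 with scipy 1.17.1. The platform annotation gave 1 symbol to 27168 probe sets, several to 177 and none to 11094, and all 32 member genes were found under the same symbol in the RefSeq table of GRCg7b. Another 3 probe sets, annotated to a member together with another symbol, were left out. The methods' SAM test on transcripts called present, without 1 bird, could not be repeated as described, so limma over all arrays was the main test and SAM (delta 0.8, 100 permutations) an alternative.

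Every member gene is named. Per-bird signals are given for the 10 genes of smallest p, the 6 of highest mean signal and 10 defining genes. Where a gene had several probe sets, that of highest mean log2 signal stood for it. Other genes were named for the smallest p in a list (up to 3) or for their r with the members (10 highest, 5 lowest), apart from those said to be chosen after their values were seen. Some were also named, after their values were seen, to show how a list divided in lean line 3 or in signal level. Members, lists and pairs were chosen with earlier results of these data known. The limma script was tested on simulated data. Other settings were quantile normalization, median scaling, a floor of 100, 50 added to each signal, the brighter probe sets only, a constant variance prior, blocks for scan day, wash run and replicate number, and leaving out each bird. Scan day 3 alone, covariation without lean line 3, pairs without fat line 4, the brighter members alone and the list of genes foreign to fat without avidin were added after seeing the data. Replicates are separate birds, and 5 per line limit the precision.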

Additional observations from a re-analysis of the deposited data

Results flagged for a closer look

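Within each line, the gap between the most extreme bird and its nearest neighbour was compared with the line's whole range, on log2 signals. This was done gene by gene, in 64 combinations of line and gene. The signals in brackets below are linear. Chance alone would mark about 1 in 20 such groups, and 4 were marked. In the fat line, SPI1 stood apart in fat line 5, with a gap of 0.76 of the range (4274, against 1661 to 2084 in the other fat line birds). NCF4 also stood apart in fat line 5, with a gap of 0.775 (1348, against 467 to 593). PLEK stood apart in fat line 4, the array with the highest median signal, with a gap of 0.791 (422, against 218 to 249.9). In the lean line, LCP1 stood apart in lean line 3, with a gap of 0.792 (4937, against 1977 to 2392).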

How the results depend on the processing

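Over all settings tried, 0 member probe sets passed an adjusted p of 0.05, the lowest adjusted p of a member being 0.224. Over the array the count was 0 under most settings, 2 with quantile normalization and without fat line 4, and 0 to 2 when single birds were left out (1 without fat line 2, 2 without fat line 4 or lean line 5). The array count at an unadjusted p under 0.05 was 2835, 1656 among the brighter probe sets, and 2112 to 4341 when single birds were left out, highest without fat line 4. The count of member genes at an unadjusted p under 0.05, which was 2, was 0 with a constant variance prior or a floor of 100, 1 with quantile normalization or median scaling (LGALS3), 1 with quantile normalization and without fat line 4 (FCER1G), 5 with scan day (7.5% over all genes) or wash run (8.66%) as a block or over all 53 probe sets, and 0 to 4 when single birds were left out, with 1 without fat line 1, fat line 5 or lean line 1, 4 without lean line 2 or lean line 4, and 0 without lean line 5. On scan day 3 alone, a setting added after seeing the data that sets fat line birds 1 to 4 against lean lines 3 and 5, there were 10 (6.88% over all genes), all lower in the fat line. The median log2 fold of -0.24 ranged between -0.28 and 0.02 when single birds were left out, the highest value without lean line 3. The median pairwise r of 0.278 was 0.176 by Spearman rho, and 0.062 to 0.326 when single birds were left out, lowest without lean line 3. Of the 32 genes, 15 kept the sign of their fold under every setting. Same-numbered birds of the 2 lines did not vary together (r of their deviations -0.136 to 0.063), so the numbers do not pair birds. The replicate block gave 3 member genes and 2591 probe sets at an unadjusted p under 0.05, and 0 after adjustment. Dim probe sets limit most what can be read of CSF3R, GPNMB and IL1B, and to a lesser degree of TIMD4, IL10RA, CX3CR1, LYZ, PLEK and TLR15. Brighter genes below the foreign gene OVALX, among them LGALS3, IL18 and CYBB, are not clear of background by that gene.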

Other observations

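Lean line 3, the bird with the highest signal for most macrophage genes, was also far above the others for a few secreted proteins of the reference lists, picked out after their values were seen. Avidin (AVD), an egg-white biotin binder also made by chicken macrophages, had 534, 547, 726, 2306 and 347 in fat line birds 1 to 5, against 784, 279.8, 39299, 411 and 1324 in lean line birds 1 to 5. EXFABP, a lipocalin that binds bacterial siderophores, had 989, 1593, 1592, 376 and 834 in fat line birds 1 to 5, against 2644, 725, 16139.5, 1244 and 1714 in lean line birds 1 to 5. LECT2, a chemotactic protein of heterophils and liver, had 1911, 718, 113, 751 and 1168 in fat line birds 1 to 5, against 1465, 597, 8408, 724 and 4061 in lean line birds 1 to 5. Complement C3 had 19, 425, 210.2, 294 and 18.1 in fat line birds 1 to 5, against 1215, 34.3, 2977, 29.9 and 701 in lean line birds 1 to 5. For all 4 genes lean line 3 was the highest bird. What part cell makeup had in these signals was not tested.

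Among lymphocyte genes, those for B cells included 2 of 10 at an unadjusted p under 0.05, both lower in the fat line (4.6% of all genes were), with 4 of the 10 higher and 6 lower at any p: CD79B, a chain of the B cell receptor complex, with a log2 fold of -1.13 (SE 0.39, adjusted p = 0.539), and JCHAIN, the joining chain of secreted antibodies, with -1.39 (SE 0.60, adjusted p = 0.655). JCHAIN had 154, 479.7, 189, 446 and 294 in fat line birds 1 to 5, against 2191, 165, 2032, 353 and 886 in lean line birds 1 to 5, so that lean lines 1 and 3 were highest. Of 17 T cell genes 5 lay higher and 12 lower in the fat line, with 0 at an unadjusted p under 0.05 by limma.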
